A study of Mus musculus with 6 samples.

Results

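The genes described here carry out or regulate the oxidation of fatty acids in mitochondria and peroxisomes. They were chosen by name: 31 genes for the activation of fatty acids, the carnitine shuttle, β-oxidation and its regulators, found by symbol in the deposited table of 24959 genes. All 31 were in the table, and all 31 had enough reads to be tested, as did 15930 genes in all. Their levels were compared between 3 libraries from control mice, labelled wild type, and 3 libraries labelled as conditional Pkm knockout (Pkm cKO, here called mutants). Pkm encodes the M-type pyruvate kinases, which make pyruvate in the last step of glycolysis. All samples were labelled as dental epithelial cells at postnatal day 0, and the labels give each replicate as a biological one. The Cre driver, the deleted part of Pkm, the strain and the pooling of animals, if any, are details not given in the sources used. The p-values therefore measure the spread between these samples. The series asks how deletion of Pkm changes gene expression in the dental epithelium during tooth development.

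Fatty acids are a fuel that feeds acetyl-CoA into the tricarboxylic acid cycle without passing through pyruvate kinase. A fatty acid is first joined to coenzyme A by an acyl-CoA synthetase. Long chains then cross the mitochondrial membranes as carnitine esters, a step controlled at carnitine palmitoyltransferase 1. Inside, each turn of β-oxidation consists of a dehydrogenation, a hydration, a further dehydrogenation and a thiolysis. Electrons from the acyl-CoA dehydrogenases pass through the electron transfer flavoprotein to the respiratory chain. Peroxisomes shorten very long and branched chains with their own enzymes. In many tissues the transcription factor PPARα and the coactivator PGC-1α raise the expression of these genes.

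Total counts ran from 30588350 to 39415700 reads per library. Pkm, the check of the labels, stood at 1281, 1185 and 1049 CPM in control replicates 1 to 3 and at 309.0, 395.0 and 350.5 CPM in mutant replicates 1 to 3. CPM are read counts per unit of library size after scaling between libraries, and this scale is used throughout except where a value is given per kilobase. Of 8 epithelial markers, all were present, and their sum was 12760 to 15200 CPM in the controls, against 9585 to 10550 CPM in the mutants. The sum of 6 ameloblast genes was 10760 to 25370 CPM in the controls, against 360.4 to 5584 CPM in the mutants. The sum of 8 mesenchymal markers, most of it Col1a1 and Col1a2, was 19550 to 31170 CPM in controls and 17980 to 39640 CPM in mutants. Of these 8, 5 were higher in every mutant than in every control (Msx1, Barx1, Twist1, Vim and Col3a1, 1.46 to 3.79 times, none past the adjusted threshold), and the median log2 fold change of the 8 was 0.68. The sum of 3 odontoblast genes was 2313 to 5192 CPM in controls, against 183.7 to 3397 CPM in mutants. All 3 had a log2 fold change below 0 (median -1.03), with overlapping groups. Of 6 erythroid genes, 5 could be tested, all lower in every mutant, and 3 of them, the globin genes Hbb-bt, Hbb-bs and Hba-a1, passed (edgeR adjusted p 0.0444 to 0.0487). The ameloblast gene Odam, lower in mutants, and the macrophage gene C1qc, higher, also passed (edgeR adjusted p 0.0312 and 0.0487). Of all tested genes, 0.552% passed, 11.2% were higher and 12.2% lower in every mutant than in every control. The part of these cell types in the values below was not tested. Mutant replicate 3 stood apart by its skeletal muscle transcripts: 8 muscle markers summed to 2920 CPM there, to 73.4 and 15.6 CPM in mutant replicates 1 and 2, and to 3.39 to 4.49 CPM in controls. The muscle regulator Myod1 was at 4.30 CPM in this library and had 0 reads in the others. Fewer cells of a type and less RNA per cell cannot be told apart in such bulk samples.

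The fatty acid oxidation genes as a group differed in summed level by less than the spread between replicates. Summed, the 31 genes took 1699, 1477 and 1452 CPM in the controls, against 1669, 1464 and 1458 CPM in the mutants. Their median log2 fold change (cKO minus control) was 0.0075, against 0.0068 over all tested genes, with 16 above 0 and 15 below. None of the 31 passed edgeR's quasi-likelihood test at a Benjamini-Hochberg adjusted p under 0.05 (0.552% of all tested genes did, 0.345% higher and 0.207% lower), and the lowest adjusted p was 0.121. At an unadjusted p under 0.05 there were 9 members, 3 higher and 6 lower in mutants, where 17.5% of all tested genes were past that level (9.57% higher, 7.9% lower). The groups did not overlap for 8 of 31 (25.8%), 2 higher and 6 lower, against 23.3% of all tested genes (11.2% higher, 12.2% lower). The share of members whose groups did not overlap was thus near that of all genes. The share at an unadjusted p under 0.05 was above that of all genes, mainly through members lower in mutants, and this was not tested. The differences given below are therefore measurements of single genes that did not pass over all genes.

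**Figure D1:**
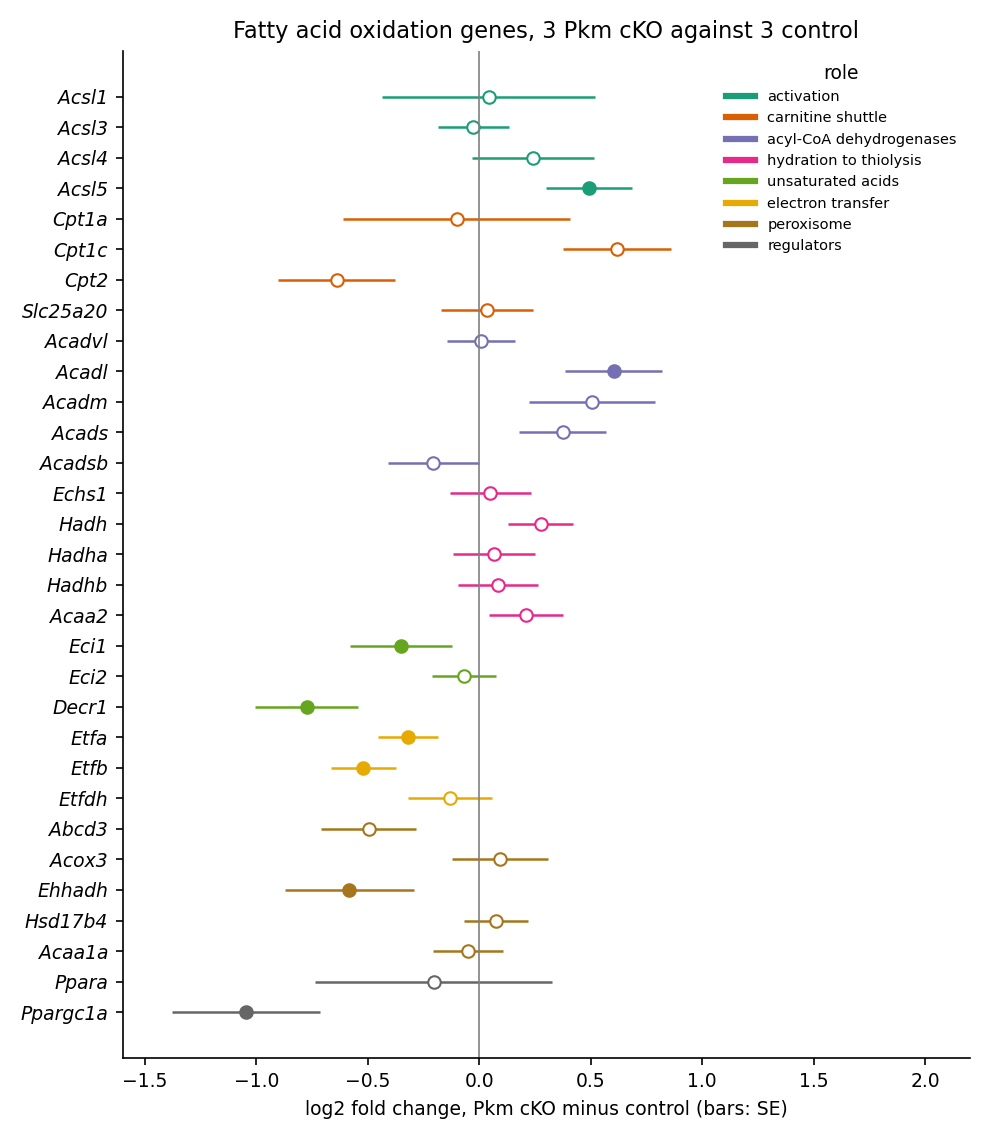
Log2 fold change (Pkm cKO minus control) of the 31 genes with its standard error, ordered and coloured by role. Filled points are the 8 genes whose groups did not overlap. Fold changes run from -1.05 for Ppargc1a to 0.62 for Cpt1c, and the 3 electron transfer genes and the 3 genes for unsaturated acids all lie below 0.

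The levels themselves differed widely between the genes. Per kilobase of exon, the most abundant in controls was Etfb, a subunit of the electron transfer flavoprotein, at 92.5 ± 7.85 CPM per kilobase (SD, n = 3). Acaa2, the mitochondrial thiolase, followed at 65.3 ± 9.13, Hadh, the short-chain hydroxyacyl-CoA dehydrogenase, at 51.2 ± 3.97 and Etfa, the other flavoprotein subunit, at 48.9 ± 1.31 CPM per kilobase. Hadh and Etfa were closer to each other than the spread of Hadh. The lowest were the regulators Ppara, at 0.247 ± 0.0888, and Ppargc1a, at 1.28 ± 0.159 CPM per kilobase. Between these ends the β-oxidation enzymes Hadhb, Acadvl, Hadha and Echs1 stood at 35.5 to 45.2 CPM per kilobase. The dehydrogenases for long, medium and short chains were lower, with Acadl at 11.8, Acadm at 6.67 and Acads at 21.1 CPM per kilobase. Exon lengths came from GENCODE, which may differ from the annotation that was counted. Some levels are uncertain because sequence is shared: 57.2% of the 75-base stretches of Hadhb and 66.3% of those of Etfb also lie in another GENCODE gene model, and 45.0% of the exon bases of Acadvl overlap Dvl2 on the opposite strand.

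The acyl-CoA synthetases join long fatty acids to coenzyme A, and different members serve different membranes. Per kilobase, Acsl3 was the most abundant of the 4 in every library, with 36.3% to 50.6% of their sum, and Acsl4, which prefers arachidonic acid, the least in every library, with 7.43% to 9.22%. Acsl3 differed little between the groups (45.1 ± 4.66 CPM in the controls, against 44.3 ± 3.55 CPM in the mutants). Acsl5, a synthetase of mitochondria and the endoplasmic reticulum, stood at 25.3, 25.0 and 27.1 CPM in the controls, against 27.6, 39.9 and 41.4 CPM in the mutants. The groups did not overlap, although mutant replicate 1 lay close to the controls. Its log2 fold change was 0.49 (SE 0.194, edgeR adjusted p 0.233).

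Acsl1, the main synthetase for oxidation in muscle and fat, had 21.6, 14.9 and 19.9 CPM in the controls, against 10.4, 11.4 and 36.1 CPM in the mutants. Mutant replicates 1 and 2 were below every control, and mutant replicate 3 was above every control. With all libraries its log2 fold change was 0.04 (SE 0.478), and without mutant replicate 3 it was -0.77 (SE 0.226, edgeR adjusted p 0.134, range 0.134 to 0.996 over 14 alternatives). Acsl4 was also highest in mutant replicate 3, at 16.6 CPM against 8.66 to 10.5 CPM elsewhere, and its log2 fold change of 0.24 became -0.07 without that library. This is the library with 2920 CPM of muscle markers, in which all 8 listed muscle markers were at their highest. The part of muscle RNA in these values was not tested.

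Carnitine palmitoyltransferase 1 makes the acylcarnitine, the translocase Slc25a20 carries it inward, and Cpt2 turns it back into acyl-CoA. Cpt1a, the form of liver and many other tissues, was present with 24.3 to 60.6 CPM in the controls, against 17.6 to 56.1 CPM in the mutants. Its level differed more within the groups than between them: replicate 1 of either group had 60.6 and 56.1 CPM, and the other libraries 17.6 to 32.9 CPM. The log2 fold change was -0.10 (SE 0.509). Cpt1b, the muscle form, could not be tested, with 0 to 7 reads per library.

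Cpt1c, the form best known from neurons, where it sits in the endoplasmic reticulum and has little transferase activity, had a ratio to Cpt1a per kilobase of 0.743, 1.62 and 1.98 in the controls, so that it was below Cpt1a in control replicate 1 and above it in the other controls. Its level was 29.1, 30.8 and 31.2 CPM in the controls, against 51.9, 58.7 and 29.1 CPM in the mutants. Mutant replicates 1 and 2 lay far above the narrow range of the controls, and mutant replicate 3 lay at its lower edge. The log2 fold change was 0.62 (SE 0.243, edgeR adjusted p 0.232). Without mutant replicate 3 it was 0.87 and passed, with an adjusted p of 0.0442 (0.77% of tested genes passed in that fit; range over 14 alternatives 0.0442 to 0.599). Of its exon bases, 13.1% overlap an antisense gene model. The sum of 6 neural and glial markers was 266.8 to 428.6 CPM in controls against 232.4, 289.9 and 103.8 CPM in mutants, and its part in the Cpt1c values was not tested.

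Cpt2, on the inner membrane, was lower in mutants on average, with 21.8, 16.7 and 12.2 CPM in the controls, against 12.7, 11.1 and 8.74 CPM in the mutants. The groups overlapped, since control replicate 3 was below mutant replicate 1. Its log2 fold change was -0.64 (SE 0.263, edgeR adjusted p 0.250). Slc25a20 stood at 35.7 ± 4.01 CPM in the controls, against 36.6 ± 9.38 CPM in the mutants.

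**Figure D2:**
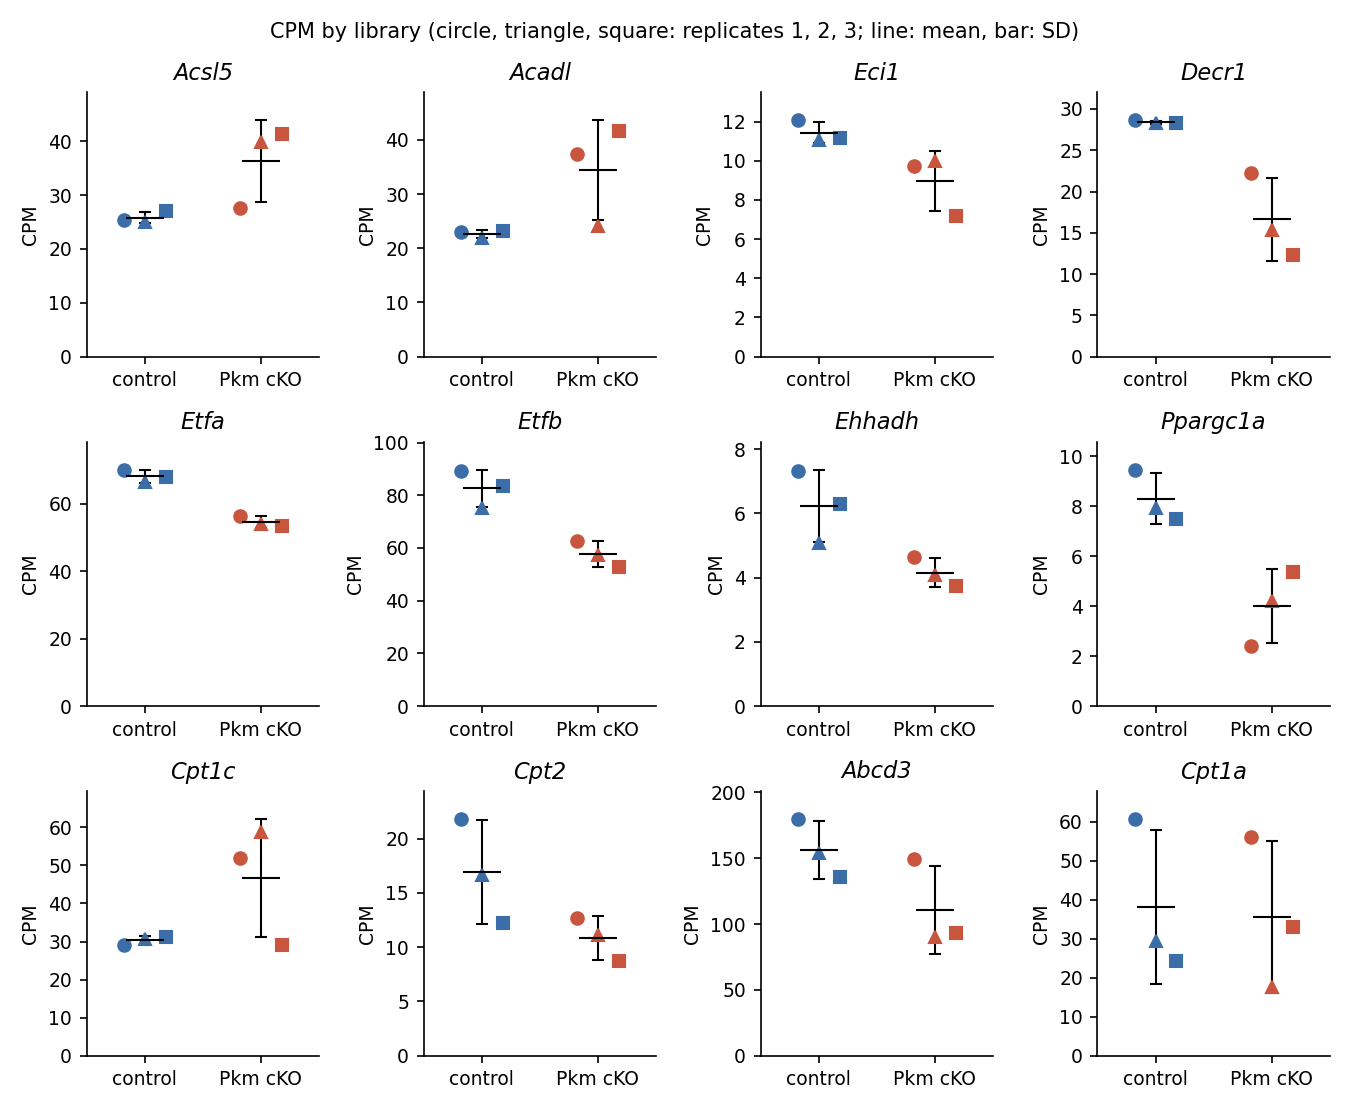
CPM by library for the 8 genes whose groups did not overlap, for Cpt1c, Cpt2 and Abcd3, which had an unadjusted p under 0.05, and for Cpt1a. The axes start at 0, and lines and bars are the mean and SD of 3 libraries. The controls of Decr1 lie within 28.3 to 28.6 CPM, above all mutants, while Cpt1a spreads over a similar range in both groups.

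The acyl-CoA dehydrogenases are flavoproteins that take the first electrons from acyl-CoA, and they differ in the chain length they accept. Acadvl, for very long chains, was level (84.1 ± 7.05 CPM in the controls, against 84.6 ± 11.0 CPM in the mutants). Acadl, for long chains, stood at 23.0, 21.9 and 23.2 CPM in the controls, against 37.5, 24.2 and 41.7 CPM in the mutants. All mutants were above all controls, and mutant replicate 2 was the closest to them. The log2 fold change of Acadl was 0.60 (SE 0.218, edgeR adjusted p 0.201) and 0.45 without mutant replicate 3.

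Acadm, for medium chains, had 13.4, 16.3 and 11.2 CPM in the controls, against 19.0, 12.6 and 26.5 CPM in the mutants, with overlapping groups. Its log2 fold change was 0.51 (SE 0.283, adjusted p 0.390, edgeR) and 0.22 without mutant replicate 3. Acadl and Acadm thus had the same order of mutants (3, 1, 2) as the summed muscle markers. That order was not particular to muscle. The sums of 8 macrophage markers (186, 114 and 191 CPM in mutant replicates 1 to 3) and of 6 endothelial markers (280, 236 and 477 CPM) had it too. The part of any of these cells in the values was not tested. Acads, for short chains, had another order, with 55.9, 59.7 and 37.6 CPM in the mutants against 38.1 to 41.2 CPM in controls. Its log2 fold change was 0.37 (SE 0.194) and 0.56 without mutant replicate 3, with adjusted p-values of 0.352 and 0.108 in edgeR. Acadsb, which acts on branched chains from isoleucine, stood at 26.5 ± 4.92 CPM in the controls, against 23.0 ± 2.78 CPM in the mutants.

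**Figure D3:**
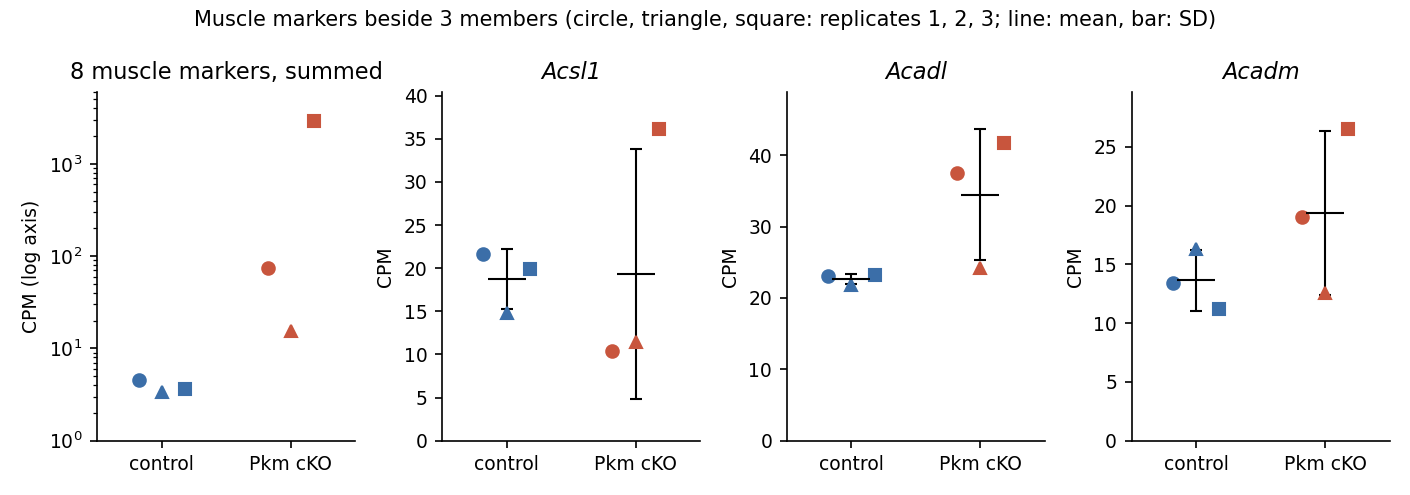
Summed CPM of 8 skeletal muscle markers on a log axis, and CPM of Acsl1, Acadl and Acadm on linear axes from 0, by library, with mean and SD for the genes. Pkm cKO replicate 3 (square) has 2920 CPM of muscle markers and the highest level of all 3 genes.

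The 5 genes of the steps from hydration to thiolysis all had fold changes slightly above 0, from 0.05 to 0.27 on the log2 scale, and none had an unadjusted p under 0.05. Hadha and Hadhb encode the α and β subunits of the trifunctional protein of the inner membrane. Hadha stood at 189, 148 and 122 CPM in the controls, against 182, 158 and 142 CPM in the mutants. Hadhb stood at 108, 81.3 and 93.3 CPM in the controls, against 122, 83.8 and 93.4 CPM in the mutants. Neither gene separated the groups, and the ratio of Hadha to Hadhb per kilobase was 0.679 to 0.945 in controls and 0.772 to 0.976 in mutants. The genes lie head to head: of the 250 bases before either start site, 228 are shared between the pair. The Hadhb window is shown for this reason, from RefSeq on build GRCm38.p6 (chr5:30155003-30155252, plus strand).
Hadhb: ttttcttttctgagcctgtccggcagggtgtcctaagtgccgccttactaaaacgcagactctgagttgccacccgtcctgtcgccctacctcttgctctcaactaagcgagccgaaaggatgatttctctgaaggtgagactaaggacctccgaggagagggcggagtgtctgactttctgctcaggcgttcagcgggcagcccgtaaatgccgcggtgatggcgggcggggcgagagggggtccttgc
Of the other genes of these steps, Hadh had the lowest p, with 91.6 ± 7.10 CPM in the controls, against 111 ± 10.4 CPM in the mutants (log2 fold change 0.27, SE 0.145). Acaa2 stood at 99.1 ± 13.8 and 115 ± 16.2 CPM. Echs1, the short-chain hydratase, stood at 55.3 ± 2.53 and 57.3 ± 12.2 CPM.

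Double bonds in natural fatty acids block the normal cycle until isomerases and a reductase move or remove them. All 3 genes of these auxiliary steps lay below 0. Decr1, the mitochondrial dienoyl-CoA reductase, stood at 28.6, 28.3 and 28.3 CPM in the controls, against 22.2, 15.3 and 12.3 CPM in the mutants. The controls were nearly equal, and each mutant library was lower. Its log2 fold change was -0.77 (SE 0.232), or 1.71 times lower, with an edgeR adjusted p of 0.137. The adjusted p was 0.0338 without mutant replicate 1 (3.92% of tested genes passed in that fit) and 0.0402 with DESeq2 (7.02% of tested genes passed), in a range of 0.0338 to 0.450 over 14 alternatives.

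The isomerase gene Eci1 was at 12.1, 11.1 and 11.2 CPM in the controls, against 9.76, 9.97 and 7.20 CPM in the mutants. Its groups did not overlap, and its log2 fold change was -0.35 (SE 0.229, edgeR adjusted p 0.471). Eci2, an isomerase of peroxisomes and mitochondria, was level at 58.0 ± 2.66 and 55.3 ± 4.25 CPM.

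Etfa and Etfb encode the subunits of the electron transfer flavoprotein, which collects electrons from the acyl-CoA dehydrogenases and from dehydrogenases of amino acids, and Etfdh encodes the oxidoreductase that hands them to ubiquinone. Etfb stood at 89.1, 75.2 and 83.5 CPM in the controls, against 62.6, 57.3 and 52.8 CPM in the mutants. Etfa stood at 70.0, 66.4 and 67.8 CPM in the controls, against 56.5, 53.9 and 53.3 CPM in the mutants. Every mutant library was below every control for both subunits, with narrow ranges on either side. The log2 fold change was -0.52 (SE 0.147, edgeR adjusted p 0.121) for Etfb, the lowest p of the 31 genes, and -0.32 (SE 0.135, edgeR adjusted p 0.263) for Etfa. In DESeq2 the adjusted p of Etfb was 0.0495 (7.02% of tested genes passed), and over 14 alternatives it ranged from 0.0495 to 0.486. Etfdh overlapped between the groups, with 64.6, 58.4 and 46.5 CPM in the controls, against 62.3, 48.2 and 44.1 CPM in the mutants.

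The ratio of Etfb to Etfdh per kilobase was 3.73, 3.48 and 4.86 in controls and 2.72, 3.22 and 3.24 in mutants, lower in every mutant library (two-sided exact permutation p 0.1 on log2 ratios, the smallest that 3 against 3 allows). That of Etfa to Etfdh was 1.88 to 2.53 and 1.57 to 2.09, with overlapping groups (exact permutation p 0.5). The ratio of Etfa to Etfb was 0.504, 0.566 and 0.521 in controls and 0.578, 0.603 and 0.647 in mutants, higher in every mutant library (exact permutation p 0.1), so the difference was larger for Etfb than for Etfa. These were 3 of 5 ratios computed, and none can pass a threshold of 0.05 at this size. The 69.1% of Etfb exon bases that overlap another gene model bear on the level of Etfb in both groups, and their part was not tested.

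The upstream sequences of Etfa (chr9:55512244-55512493, minus strand) and Etfb (chr7:43443822-43444071, plus strand) are shown because both partner genes were lower in every mutant library, though not to the same degree. They are the 250 bases before the start site in RefSeq, build GRCm38.p6, with CCAAT boxes and the CRE core (TGACG), on either strand, in capitals.
Etfa: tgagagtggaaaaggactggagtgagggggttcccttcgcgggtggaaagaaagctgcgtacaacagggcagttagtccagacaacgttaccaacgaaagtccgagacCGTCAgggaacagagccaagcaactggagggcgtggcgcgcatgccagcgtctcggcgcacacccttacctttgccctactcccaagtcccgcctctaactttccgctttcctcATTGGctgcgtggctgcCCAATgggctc
Etfb: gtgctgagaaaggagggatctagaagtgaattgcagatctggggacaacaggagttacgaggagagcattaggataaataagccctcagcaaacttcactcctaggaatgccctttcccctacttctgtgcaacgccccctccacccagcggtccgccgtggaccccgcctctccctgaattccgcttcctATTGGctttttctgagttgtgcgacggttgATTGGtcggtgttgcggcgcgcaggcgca
Both windows hold 2 CCAAT boxes, 11 and 28 bases before the start in Etfa and 29 and 59 bases before it in Etfb, counted from the 5′ edge of the match. At least 2 CCAAT boxes were found in 10.1% of all 32817 RefSeq windows of this length and in those of Acaa1a and Acsl1 among the other members. At least 1 box was found in 33.8% of all windows and in 12 of 30 windows of the members, and a TGACG core in 17.7% and in 10 of 30. Such matches describe the letters and do not show that a factor binds. The table matched 28 of the 31 genes, all but Acaa2, Decr1 and Hsd17b4, and holds 2 windows for Abcd3 and for Acsl1. The motifs were chosen after the expression values were seen.

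Abcd3 encodes the abundant membrane transporter that brings long and branched acyl-CoAs into peroxisomes, and was the member of this role with the most reads. Its level was 180, 154 and 136 CPM in the controls, against 149, 90.2 and 93.1 CPM in the mutants. Mutant replicates 2 and 3 were well below the controls, and mutant replicate 1 lay among them. Its log2 fold change was -0.50 (SE 0.212, edgeR adjusted p 0.268). Without mutant replicate 1 it was -0.77, with an edgeR adjusted p of 0.0442 (3.92% of tested genes passed in that fit, range 0.0442 to 0.675 over 14 alternatives). Ehhadh, the bifunctional enzyme that responds strongly to PPARα in liver, was scarce, with 7.32, 5.07 and 6.28 CPM in the controls, against 4.65, 4.07 and 3.75 CPM in the mutants. The groups did not overlap, and the log2 fold change was -0.58 (SE 0.289, edgeR adjusted p 0.331).

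The remaining peroxisomal enzymes did not separate the groups. Hsd17b4, the other bifunctional enzyme, stood at 76.0 ± 4.11 CPM in the controls, against 80.1 ± 6.99 CPM in the mutants. Acox3, an oxidase for branched chains, stood at 26.1 ± 4.60 and 27.8 ± 5.75 CPM. Acaa1a, a peroxisomal thiolase, stood at 63.3 ± 4.10 and 61.1 ± 8.92 CPM, and reads may be divided between it and its close copy Acaa1b.

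Ppargc1a, which encodes PGC-1α, had the largest fold change of the 31 genes. Its level was 9.45, 7.92 and 7.50 CPM in the controls, against 2.42, 4.21 and 5.36 CPM in the mutants, which is 75 to 347 reads per library. The groups did not overlap. The log2 fold change was -1.05 (SE 0.332), or 2.07 times lower, with an edgeR adjusted p of 0.154. DESeq2 gave an adjusted p of 0.0307 (7.02% of tested genes passed). The 14 alternatives ranged from 0.0307 to 0.518 with log2 fold changes of -1.31 to -0.79. Ppara, which encodes PPARα, had only 15 to 44 reads in a library (0.874 ± 0.314 CPM in the controls, against 0.756 ± 0.288 CPM in the mutants), with overlapping groups (log2 fold change -0.21, SE 0.530).
The window upstream of Ppargc1a is shown (chr5:51567726-51567975, minus strand, RefSeq, build GRCm38.p6), with its CRE core, the recognition letters of CREB-family factors, in capitals.
Ppargc1a: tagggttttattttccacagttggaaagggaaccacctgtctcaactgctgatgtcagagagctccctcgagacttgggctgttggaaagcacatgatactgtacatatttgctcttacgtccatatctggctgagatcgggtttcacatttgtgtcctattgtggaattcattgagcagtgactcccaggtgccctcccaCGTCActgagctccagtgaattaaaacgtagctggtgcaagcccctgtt
The match lies on the opposite strand, 49 bases before the start. The ERR site TNAAGGTCA and the PPAR site, which is AGGTCA, any base and AGGTCA again, were searched on both strands. They were in 0 of the 30 member windows and in 1.14% and 0.0335% of all windows.

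**Figure D4:**
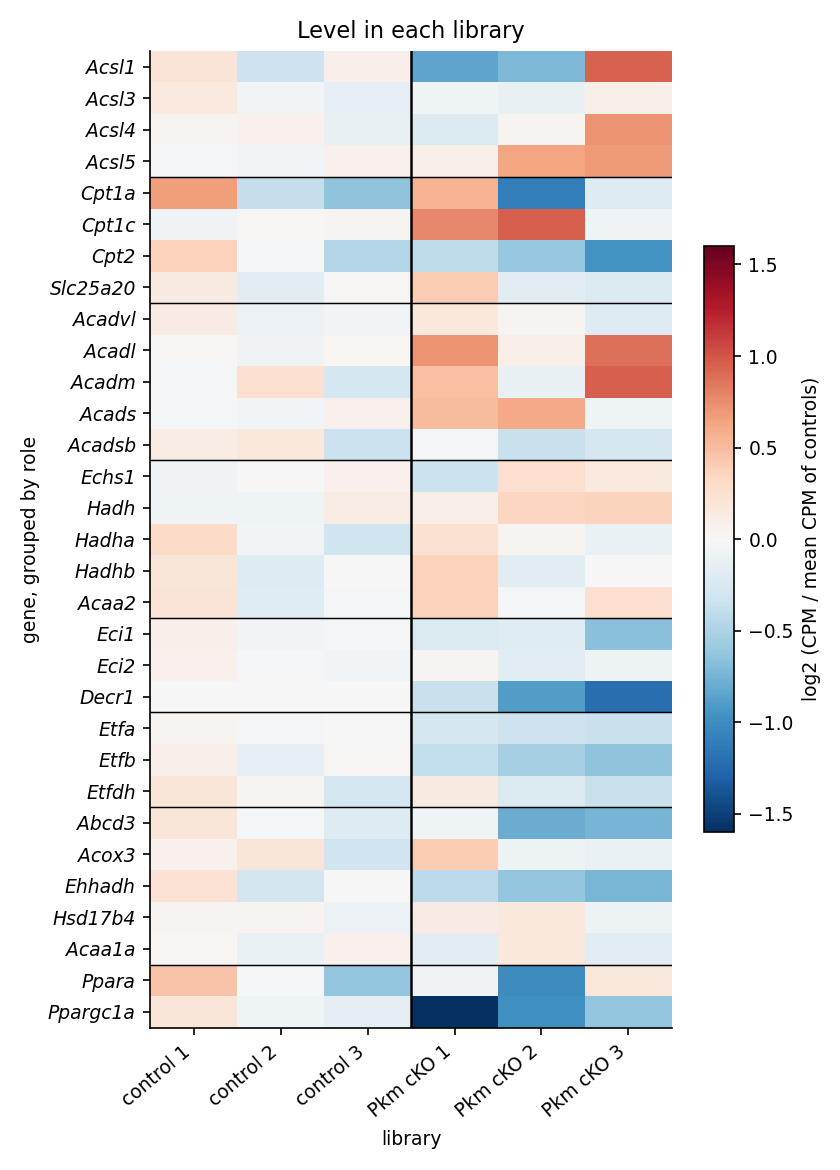
Level of each of the 31 genes in each library, as log2 of CPM over the mean CPM of the controls (red higher, blue lower), with genes grouped by role. Pkm cKO replicate 3 is high for Acsl1, Acadl and Acadm, and Cpt1a is high in replicate 1 of both groups.

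In 14 of the 31 genes (45.2%) replicate 1 was the highest library both among the controls and among the mutants, against 14% of all tested genes. These 14 were Cpt1a, Cpt2, Slc25a20, Acadvl, Hadha, Hadhb, Acaa2, Decr1, Eci2, Etfa, Etfb, Etfdh, Abcd3 and Ehhadh. They came from the carnitine shuttle, the acyl-CoA dehydrogenases, the steps from hydration to thiolysis, the auxiliary steps, electron transfer and peroxisomes. The margin could be small, as in the controls of Decr1 (28.6, 28.3 and 28.3 CPM). Angptl4, a secreted lipase inhibitor and textbook PPAR target outside the 31 genes, was chosen after its values were seen. The levels of Angptl4 were 50.5, 18.4 and 6.07 CPM in the controls, against 50.5, 13.5 and 5.91 CPM in the mutants. Of the 56 tested genes that the table assigns to the KEGG PPAR signaling pathway, however, 8 (14.3%) had replicate 1 highest in both groups, the same share as all genes. The labels do not say that equal replicate numbers share a litter, day or batch, and the cause was not tested.

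**Figure D5:**
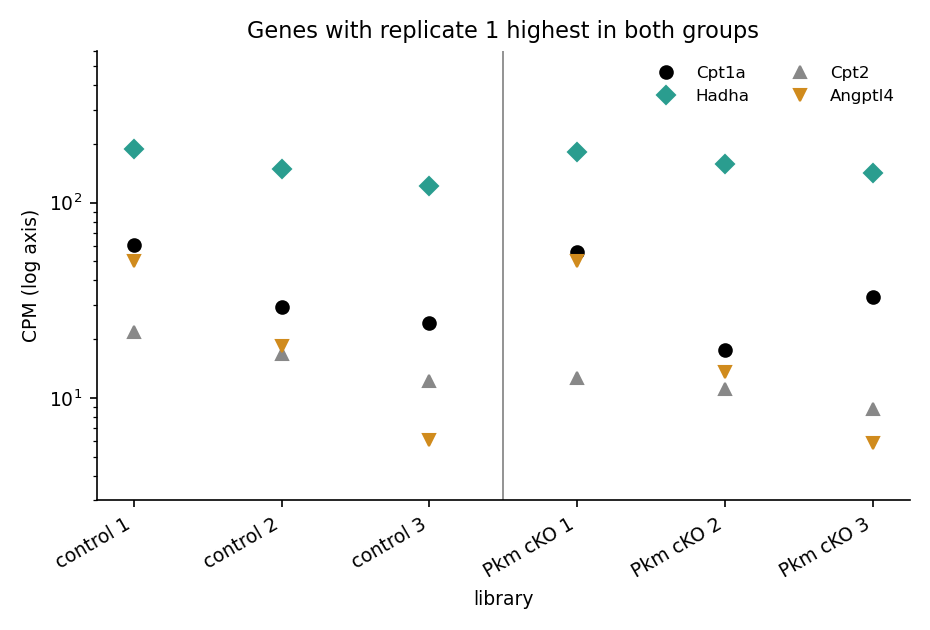
CPM on a log axis, by library, of Cpt1a, Cpt2 and Hadha and of the PPAR target Angptl4. Replicate 1 is the highest library of either group for all 4 genes, and Angptl4 spans 5.91 to 50.5 CPM.

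Of 30 further enzymes and transporters of fatty acid oxidation, 28 could be tested. None passed the adjusted threshold (edgeR), 2 were higher and 3 lower at an unadjusted p under 0.05, and the groups did not overlap for 9 of 28 (32.1%, 3 higher and 6 lower, against 23.3% of all tested genes). The 5 of 28 at an unadjusted p under 0.05 compare with 17.5% of all tested genes. Their median log2 fold change was -0.12. Acsbg1, an acyl-CoA synthetase known from brain and testis, had the lowest p, at 0.498 ± 0.162 CPM in the controls, against 2.66 ± 1.15 CPM in the mutants (log2 fold change 2.41, SE 0.518, adjusted p 0.0736 in edgeR). Scp2, a peroxisomal thiolase and sterol carrier, stood at 91.5 ± 5.72 and 65.9 ± 9.43 CPM. Ivd, a dehydrogenase of leucine breakdown that also passes its electrons to the flavoprotein, stood at 64.0 ± 2.69 and 46.0 ± 8.88 CPM.

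Among 19 genes of the PPAR and PGC-1 axis, 0 passed, 0 were higher and 3 lower at an unadjusted p under 0.05 (17.5% of all tested genes were past that level), and the median log2 fold change was -0.09. The groups did not overlap for 2 of 19 (10.5%), a smaller share than the 23.3% of all tested genes. Ppargc1b, the relative of Ppargc1a with a similar coactivator role, stood at 24.1, 15.9 and 10.6 CPM in the controls, against 8.53, 6.54 and 9.98 CPM in the mutants (log2 fold change -1.01, SE 0.313, adjusted p 0.145 in edgeR). Its groups did not overlap either, though control replicate 3 came close to mutant replicate 3. Ucp2, a carrier of the inner mitochondrial membrane, had 909, 676 and 662 CPM in the controls, against 515, 471 and 255 CPM in the mutants (log2 fold change -0.86, SE 0.258, adjusted p 0.143, edgeR). Prkaa2, a catalytic subunit of AMP-activated kinase, stood at 13.9 ± 2.98 and 7.42 ± 3.40 CPM.

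Of 16 genes of peroxisome biogenesis, catalase included, 0 passed, 1 was higher and 2 were lower at an unadjusted p under 0.05 (17.5% of all tested genes were), and the median log2 fold change was -0.09. Groups that did not overlap were found for 4 of 16 (25%), near the 23.3% of all tested genes. Pex2, an import receptor ligase, stood at 61.3 ± 4.53 CPM in the controls, against 41.4 ± 4.64 CPM in the mutants (log2 fold change -0.56, SE 0.157, adjusted p 0.119 in edgeR). Pex6, an export ATPase, was at 51.7 ± 4.04 and 80.3 ± 22.7 CPM, and Pex11a, which promotes peroxisome division, at 12.8 ± 2.84 and 7.89 ± 2.08 CPM. These 3 genes, named for their low p, were among those 4.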

How the data were processed

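The authors deposited whole-number read counts per gene for the 6 libraries, made from 200 ng of total RNA each, per the labels' protocols. HISAT2, fastp and build mm39 are named per the submitters' processing notes. No source used here gives the counting program, strand setting or annotation, so reads of overlapping or antisense genes cannot be told apart. Groups and replicate numbers came from the sample titles.

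Low genes were removed with filterByExpr, and the remaining counts were scaled by TMM and compared with edgeR's quasi-likelihood test (robust, two-sided, edgeR 4.0.16, R 4.3.3), Benjamini-Hochberg adjusted over all 15930 tested genes. The SE was taken from the log2 fold change and its F value. The procedure was also run on counts simulated with the spread estimated from these data, and the outcome is not reported here. No libraries were duplicates (chi-square per gene at least 28.5), and the biological coefficient of variation was 0.300. Alternatives were DESeq2 1.42.0, limma-voom (limma 3.58.1), other scalings and filters, a replicate block and leaving out each library.

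The members and gene lists were chosen with earlier results of these data known. Library values were given for members with an unadjusted p under 0.05 or groups that do not overlap, and for others that differed between libraries, which were chosen after their values were seen. From other lists, the 3 genes with the lowest p were named, except a gene that is not reported here. Exon lengths and overlaps came from GENCODE M21 and promoters from RefSeq, both on GRCm38, so no coordinates were joined to the counts.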

Additional observations from a re-analysis of the deposited data

How the results depend on the processing

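No member passed in edgeR with either other scaling, either other filter, limma-voom, or without robust estimation. In these fits 7 to 9 members had an unadjusted p under 0.05, where 17.5% of all tested genes did in the main fit. With DESeq2 3 passed (Decr1, Etfb, Ppargc1a), as did 7.02% of all tested genes. Leaving out 1 library gave 0 to 2 members. These were Decr1 and Abcd3 without mutant replicate 1 (3.92% of tested genes passed) and Cpt1c without mutant replicate 3 (0.77% passed). The median log2 fold change of the members stayed within the spread between libraries, at -0.0894 to 0.0821 without 1 library. Members with groups that did not overlap numbered 8 to 13 without 1 library, an alternative chosen after the data were seen, as 27.4% to 39.2% of all tested genes did.

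The count over all genes, 88 (55 higher, 33 lower), was 55 (16 lower) with DESeq2's size factors, 518 (301 higher, 217 lower) without a filter, 1118 (688 higher, 430 lower) with DESeq2, and 2 (0 higher, 2 lower) with limma-voom and without robust estimation, with 2741 and 2840 genes at an unadjusted p under 0.05. With upper-quartile scaling 18 were lower. It was 0 without any 1 control (1532 to 2495 genes at an unadjusted p under 0.05) and at most 640 without a mutant library (up to 317 higher and 323 lower). The cause was not tested.

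Members near 0 changed sign: Acsl3 to 0.0142 with upper-quartile scaling, Acsl1 to -0.14 and Acadvl to -0.0006 with limma-voom, Acsl1 to -0.19 with the replicate block. Without 1 library the ranges were -0.77 to 0.34 for Acsl1, -0.0906 to 0.0542 for Acsl3, -0.0731 to 0.42 for Acsl4, -0.60 to 0.40 for Cpt1a, -0.20 to 0.16 for Slc25a20, -0.0818 to 0.12 for Acadvl, -0.0676 to 0.21 for Echs1, -0.074 to 0.24 for Hadha, -0.0894 to 0.20 for Hadhb, -0.0925 to 0.20 for Acox3, -0.17 to 0.021 for Acaa1a and -0.44 to 0.0821 for Ppara.

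Deviations of same-numbered samples had correlations over genes of 0.23, 0.015 and 0.22 for numbers 1, 2 and 3. Samples of unlike number had -0.28 to 0.070. For number 2, control replicate 2 was closer to mutant replicate 1, and mutant replicate 2 to control replicate 3. In 40.5% of all tested genes the same number was highest in both groups. The labels give no pairing, so the main fit used none. Whether equal numbers share more than a number was not tested. With the replicate number as a block, 708 genes passed (359 higher, 349 lower) and no member did.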

Other observations

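Genes of fatty acid uptake, storage and lipolysis were described in the same way. Of 17 tested, 14 had a log2 fold change above 0 (median 0.37), 7 were higher and 1 lower at an unadjusted p under 0.05 (9.57% and 7.9% of all tested genes were), and 0 passed edgeR's adjusted threshold. The share of the 17 that was higher at that unadjusted level was thus larger than the 9.57% of all tested genes. Groups that did not overlap were found for 3 of 17 (17.6%, 2 higher and 1 lower), a smaller share than the 23.3% of all tested genes. Lpl, the lipase that frees fatty acids from circulating lipoproteins, stood at 6.02, 3.86 and 3.53 CPM in the controls, against 19.6, 6.57 and 43.5 CPM in the mutants (log2 fold change 2.38, SE 0.673, adjusted p 0.159 in edgeR). The binding protein gene Fabp3, typical of muscle, was at 3.55 ± 0.699 and 7.39 ± 2.87 CPM. Both had their highest cKO level in replicate 3 and the next in replicate 1, the order of the summed muscle, macrophage and endothelial markers. Macrophage markers were also higher, with 8 genes summing to 60.5 to 64.0 CPM in the controls, against 186, 114 and 191 CPM in the mutants. The part of other cells in these values was not tested. Adipocyte markers were near 0 (6 genes, at most 0.698 CPM in sum outside mutant replicate 3, which had 4.02 CPM, 3.75 of it Cidea). Mgll, the monoacylglycerol lipase, was lower in every mutant library, at 30.3 ± 6.54 and 18.1 ± 3.16 CPM (log2 fold change -0.74, SE 0.219, adjusted p 0.133, edgeR).

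Of 6 genes of ketone body metabolism, 0 passed in edgeR. At an unadjusted p under 0.05, 1 was higher and 0 lower (9.57% and 7.9% of all tested genes were). Groups that did not overlap were found for 1 of 6 (16.7%), a smaller share than the 23.3% of all tested genes. Bdh2, a cytosolic hydroxybutyrate dehydrogenase, was at 5.17 ± 1.09 CPM in the controls, against 8.71 ± 2.05 CPM in the mutants. Bdh1, the mitochondrial form, was at 88.2 ± 3.16 and 67.9 ± 25.4 CPM.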
